A study of Mus musculus with 20 samples.

Results

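The genes described are 9 that carry salt, bicarbonate, acid and water across the lining of the colon. They were chosen by name, as the listed colonic ion and water transport genes that occur in the proximal colon (PC) count table, and all 9 were found among its 12701 genes. Slc26a3 and Slc9a3 encode the chloride-bicarbonate exchanger DRA and the sodium-hydrogen exchanger NHE3, Car1, Car2 and Car4 encode carbonic anhydrases, and Aqp8 and Aqp4 encode water channels. Scnn1a encodes the alpha subunit of the epithelial sodium channel ENaC, and Cftr encodes the chloride channel of the crypt.

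The RNA came from a segment of PC, taken close to the cecum, of C57BL/6 mice. From 3 weeks of age all of them ate TWD (Total Western Diet), a formulated rodent diet built to resemble a human intake pattern, for 6 weeks. For 3 further weeks resistant potato starch (RPS) made up 0%, 2%, 5% or 10% of that diet, so that the 0% RPS group, the controls, stayed on plain TWD, with 5 mice on each of the 4 diets and 20 libraries in all. Host enzymes leave RPS largely undigested, and gut microbes ferment it in the cecum and colon. The question put to these genes is whether their transcripts differ between the diets, at any level of RPS or in proportion to it.

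The colon takes up sodium chloride mainly by an exchanger pair in the brush border of surface cells. NHE3 brings in sodium for a proton and DRA brings in chloride for bicarbonate, and carbonic anhydrases supply both the proton and the bicarbonate from carbon dioxide. ENaC takes up sodium without an exchange partner, CFTR drives secretion of chloride and fluid, and water follows the salt. The segments of mouse colon differ in how much they rely on each of these routes.

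Each library held between 20581013 and 35083751 counted reads, and all 9 genes had far more than the 3 counts taken as a detection floor in every library. The segment is whole tissue: all 10 listed markers of epithelium, all 9 of smooth muscle and all 7 of enteric neurons and glia were detected. In such a sample, fewer cells of a type and less RNA per cell cannot be told apart. Of the 20 libraries, 0% RPS replicate 2 stood apart, with 25.9% of all genes outside the range of the other 19 libraries, against 2.18% to 17.1% for each other library. Its smooth muscle markers summed to 323890.0 normalised counts (138145 to 287698 in the others) and its leukocyte markers to 22120.2 (5488 to 10897). Hoxa13, a position gene of the hindmost gut and the single gene of that list in the table, stood at 1024 there against 34.5 to 198 in the others. Values that rest on 0% RPS replicate 2 are given below with and without it.

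Promoter stretches are shown for the 4 genes on which the results turn, namely the exchangers Slc26a3 and Slc9a3, the water channel Aqp8, which varied most between mice, and Car4, which passed the linear trend over RPS in DESeq2 but not in edgeR. Each line is the 120 bases before the start of transcription on the plus strand, from RefSeq on GRCm38.p6. An entry was used for 5 of the 9 genes. Car1, Car2 and Scnn1a had no entry, and Aqp4 was left out of the promoter search. The positions are chr12:31438099-31438218, chr13:74121293-74121412, chr7:123462174-123462293 and chr11:84957634-84957753 in the order of the lines. Capitals mark TATAAA, the core letters of a TATA box, searched on both strands.
Slc26a3: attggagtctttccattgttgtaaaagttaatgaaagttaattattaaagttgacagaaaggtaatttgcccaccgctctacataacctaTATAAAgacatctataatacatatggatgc
Slc9a3: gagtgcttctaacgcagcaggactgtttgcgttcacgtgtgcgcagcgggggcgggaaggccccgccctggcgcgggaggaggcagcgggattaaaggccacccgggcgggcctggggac
Aqp8: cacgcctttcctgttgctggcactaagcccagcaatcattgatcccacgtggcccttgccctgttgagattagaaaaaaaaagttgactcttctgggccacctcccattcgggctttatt
Car4: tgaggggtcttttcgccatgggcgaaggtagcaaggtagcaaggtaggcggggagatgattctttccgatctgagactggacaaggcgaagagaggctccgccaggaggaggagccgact

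The exchanger promoters differ in composition. Over the 250 bases before the start, that of Slc26a3 has 38.8% G and C with 1 CpG, and that of Slc9a3 has 67.6% with 19 CpG. The median of 32851 mouse promoters is 52.4% with 6 CpG. Aqp8 stands at 52.4% with 5 CpG, Car4 at 56.4% with 11 CpG and Cftr at 76.4% with 30 CpG. TATAAA occurs in that stretch in Slc26a3 alone of these 5 genes, beginning 30 bases before the start, and in 12.4% of all promoters. TTTATNG, letters of the site bound by CDX and hindmost HOX proteins, was searched on both strands and is in none of the 5, against 9.81% of all promoters.

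Car1 was by far the most abundant of the 9 genes. Its protein is the cytosolic carbonic anhydrase of colonic surface cells. Per length of merged exons, on the TPM scale, which sets each library's length-corrected counts to the same sum, it averaged 20014 ± 4869 (SD, n = 20 libraries), with a median of 20276. This placed it 6th by level among all genes of the table, and it took 1.21% of all counts in the median library. Of the summed level of the 3 carbonic anhydrases, Car1 made up 96.2% in the median library and 84.9% in 0% RPS replicate 2.

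The other genes followed in the order of their median levels per length, which depends on the length used. Merged exons span 4405 bases for Car2 and 3423 for Car4, while their longest transcripts have 3750 and 2277. For Slc9a3 the lengths are 7641 and 5118, and for Slc26a3 6369 and 3462. Levels by longest transcript are not given here. Car2, the fast cytosolic isoform, averaged 427 ± 39.9 TPM (SD, n = 20), and Car4, the isoform anchored to the outer face of the brush border, averaged 389 ± 60.4 TPM. Slc9a3 averaged 178 ± 49.8 TPM and Slc26a3 97.1 ± 38.3 TPM, so the sodium exchanger stood above the chloride exchanger, in 19 of 20 libraries. Scnn1a averaged 48.7 ± 7.28 TPM and Cftr 46.0 ± 5.83 TPM. The water channels came last by median level, with Aqp8 at 19.2 TPM (mean 61.0 ± 116) and Aqp4 at 13.8 TPM (mean 21.7 ± 31.1).

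For several neighbours in this order the mean log2 ratio was smaller than its SD between libraries. Whether their levels differ on average was not tested. Car2 stood above Car4 in 15 of 20 libraries, with a mean log2 ratio of 0.15 ± 0.25 (SD). Scnn1a stood above Cftr in 11 of 20, with 0.079 ± 0.29, Cftr above Aqp8 in 13, with 0.73 ± 1.60, and Aqp8 above Aqp4 in 16, with 0.90 ± 1.44. By contrast, Car1 stood above Car2, Car4 above Slc9a3 and Slc26a3 above Scnn1a in all 20 libraries. Their mean log2 ratios were 5.49 ± 0.54, 1.16 ± 0.40 and 0.94 ± 0.34.

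**Figure D1:**
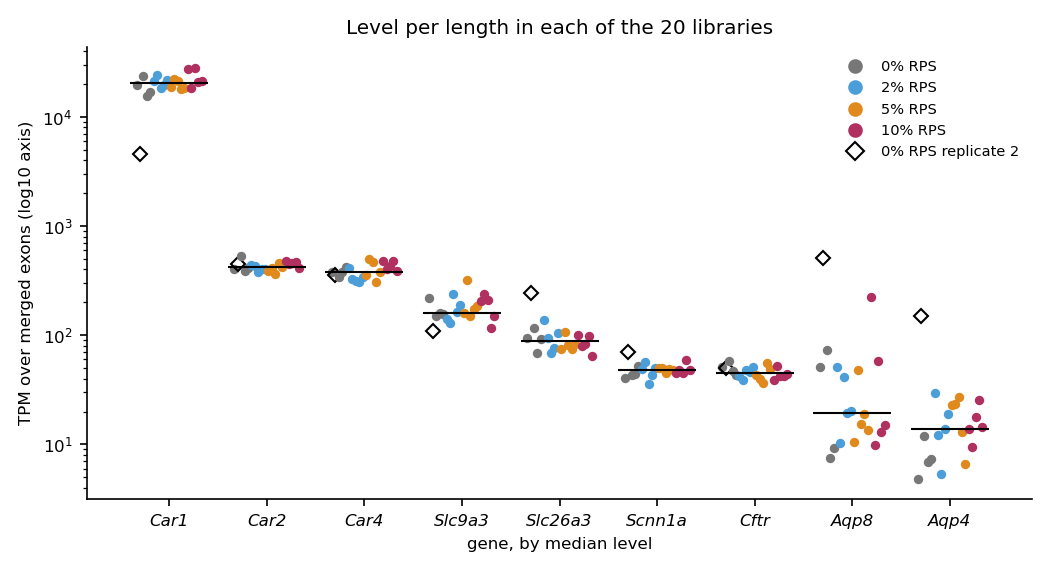
Level per length (TPM over merged exons, log10 axis) of the 9 genes, ordered by median. Each point is 1 of the 20 libraries, coloured by diet, the diamond is 0% RPS replicate 2 and the line is the median. Car1 lies between 4581 and 28268 TPM while no library of the other genes exceeds 530.5 TPM, and the diamond is the lowest point for Car1 and Slc9a3 and the highest for Slc26a3, Scnn1a, Aqp8 and Aqp4.

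Against 0% RPS, none of the 9 genes changed at 2%, 5% or 10% RPS by DESeq2 (adjusted p of 0.05 or less and at least 1.5-fold). Over all genes tested, 0.0239% changed at 2% RPS, 0.438% at 5% RPS and 0.9% at 10% RPS, so a count of 0 in 9 lies near the background. At an unadjusted p under 0.05, 1 of the 9 genes passed at 2% RPS (Aqp8), 1 at 5% RPS (Aqp8) and 2 at 10% RPS (Car1 and Car4), or 11.1%, 11.1% and 22.2% of them beside 8.70%, 16.6% and 18.8% of all genes tested. The edgeR quasi-likelihood test also called 0 of the 9 in each of these comparisons, and 0, 7 and 40 genes of the whole table (0.0566% at 5% and 0.323% at 10% RPS) where DESeq2 called 3, 55 and 113. With scaling on epithelial genes the median log2 fold change of all genes was -0.16, -0.13 and -0.13 at 2%, 5% and 10% RPS, against -0.0076, -0.0089 and 3.6e-05 without it, and the split of higher and lower calls went from 42 and 13 to 24 and 34 at 5% RPS, from 66 and 47 to 41 and 102 at 10% RPS, and from 301 and 237 to 60 and 158 in the trend over RPS. The 3 comparisons share the same 5 control libraries. The p-values weigh each difference between diets against the spread between these mice.

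The chloride exchanger Slc26a3 (chr12:31440870-31523916 on GRCm39, as are the positions that follow) was similar across the diets apart from 1 mouse. Its normalised counts at 0% RPS were 3595, 4725, 4886, 5957 and 12364, the last in replicate 2. They were 3757, 4082, 5083, 5746 and 7065 at 2% RPS, 3961, 4144, 4327, 4409.8 and 5887 at 5% RPS, and 3571, 4281, 4811, 5386 and 5402 at 10% RPS. All diets overlapped, and the library next below replicate 2 was one of 2% RPS. The log2 fold change at 10% RPS was -0.43 (95% CI -0.96 to 0.11, DESeq2 adjusted p = 0.385). Without 0% RPS replicate 2 it was -0.030 (-0.38 to 0.32).

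The sodium exchanger Slc9a3 (chr13:74269360-74317561) spread as widely within a diet as between diets. Its normalised counts were 6673, 9259.9, 9651, 9912 and 13648 at 0% RPS, and 8296, 8756, 10462, 12471 and 15661 at 2% RPS. They were 9499, 10051, 11446, 11731 and 21245 at 5% RPS, and 7761, 9823, 13261, 14479.8 and 15138 at 10% RPS. The diets overlapped fully, with the highest value of all in 5% RPS replicate 2 and the lowest in 0% RPS replicate 2. Log2 fold changes were 0.18, 0.38 and 0.30 at 2%, 5% and 10% RPS, with DESeq2 adjusted p of 0.883, 0.481 and 0.562. Without 0% RPS replicate 2 these log2 fold changes of Slc9a3 were 0.069, 0.27 and 0.19. Part of its transcript, 4.28% of its 50-base windows, also occurs in Exoc3, which overlaps it on the other strand, and the use of strand in counting was not stated.

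Aqp8 (chr7:123061514-123067227), the water channel of the colonic surface, was the most variable of the 9. Its normalised counts ran from 98 to 6463 at 0% RPS, the others being 118, 670.3 and 917. They were 137, 262, 277, 561 and 655 at 2% RPS, 136, 181, 204, 258 and 664 at 5% RPS, and 132, 179, 204, 825 and 3003 at 10% RPS. Every diet held low libraries, and the highest values were those of single mice at 0% and 10% RPS. The coefficient of variation over the 20 libraries was 186%, and 133% without 0% RPS replicate 2. The log2 fold change at 5% RPS was -2.52 (95% CI -4.42 to -0.62, DESeq2 adjusted p = 0.151), and without that library -0.64 (-2.36 to 1.07, adjusted p = 0.740). At 10% RPS the value changed sign, from -0.93 with the library to 0.95 without it.

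Aqp4, a water channel of the basolateral membrane, also depended on 1 library. At 0% RPS its normalised counts were 262, 371, 389, 621 and, in replicate 2, 7908. They were 302, 664, 765, 1083 and 1560.2 at 2% RPS, 360.0, 734, 1239, 1335 and 1488 at 5% RPS, and 519.5, 768, 823, 1049 and 1444 at 10% RPS. Apart from replicate 2 the 0% RPS libraries sat at the bottom of the range, and all 3 starch diets overlapped them. The log2 fold changes were -1.13, -0.89 and -1.05 at 2%, 5% and 10% RPS (DESeq2 adjusted p = 0.680, 0.575 and 0.456). Without 0% RPS replicate 2 they turned to 1.09, 1.33 and 1.16, with DESeq2 adjusted p of 0.399, 0.0667 and 0.0935, none past the threshold. That fit called 0.0398%, 0.827% and 1.6% of all genes. In that replicate Hoxa13 and the muscle and leukocyte markers were high as well, and their part in these values was not tested.

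Car1 (chr3:14831269-14873459) had a lower mean at 0% RPS than on each starch diet. Its normalised counts at 0% RPS were 70115 in replicate 2, then 239322, 257958, 307566 and 361131. They were 299439, 315798, 330407, 357550.0 and 383525 at 2% RPS, 294053, 296677, 296888, 337466 and 369219 at 5% RPS, and 290228, 344661, 349448, 438607 and 483922 at 10% RPS. The groups overlapped, with 2 of the 5 libraries at 10% RPS above the highest at 0% RPS. The log2 fold change at 10% RPS was 0.63 (95% CI 0.13 to 1.12, DESeq2 adjusted p = 0.131), and without 0% RPS replicate 2 it was 0.39 (0.12 to 0.66, adjusted p = 0.0600). Without 0% RPS replicate 3, it passed at 0.80 (DESeq2 adjusted p = 0.0315). The gene Gm16399 overlaps Car1 on the same strand, and 9.12% of its 50-base windows recur in the genes Gm5843 and Gm66715.

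Car2 (chr3:14951317-14967568) was the steadiest of the 9, with a coefficient of variation of 9.58% over the 20 libraries. Its normalised counts were 13959.8, 14584, 14683, 16065 and 18693 at 0% RPS, and 14201, 15003, 15349, 15688 and 15872 at 2% RPS. They were 13295, 14236, 15399.7, 15825 and 17449 at 5% RPS, and 15829, 16682, 17581, 17825 and 18266 at 10% RPS. Here 0% RPS replicate 2 lay within the range of the others. The log2 fold change at 10% RPS was 0.14 (95% CI -0.014 to 0.30, DESeq2 adjusted p = 0.314), an interval that stops short of a 1.5-fold change.

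Scnn1a (chr6:125297622-125321906), the subunit that every working ENaC needs, had normalised counts of 1378, 1422, 1508, 1768 and 2319 at 0% RPS, the last again in replicate 2. They were 1259, 1508, 1652, 1814 and 1992 at 2% RPS, 1549, 1669, 1714, 1747 and 1791 at 5% RPS, and 1565, 1659.9, 1669, 1715 and 2107 at 10% RPS. The diets overlapped throughout. The log2 fold change at 10% RPS was 0.055 (95% CI -0.21 to 0.32, DESeq2 adjusted p = 0.856) and without that library 0.20 (-0.028 to 0.43). Gm66744, on the other strand, shares 4.69% of its 50-base windows.

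Cftr (chr6:18170686-18322767), the secretory member, had log2 fold changes of -0.085, -0.090 and -0.094 at 2%, 5% and 10% RPS (DESeq2 adjusted p = 0.868, 0.728 and 0.692). Its normalised counts spanned 2731 to 3574 at 0% RPS (median 3122), 2512 to 3441 at 2% RPS (median 3039), 2370.0 to 3741 at 5% RPS (median 2778) and 2557 to 3398 at 10% RPS (median 2941). All 4 ranges overlapped. The interval at 10% RPS, -0.32 to 0.13, lies within 1.5-fold in both directions, and 0% RPS replicate 2 lay within the range of the others.

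**Figure D2:**
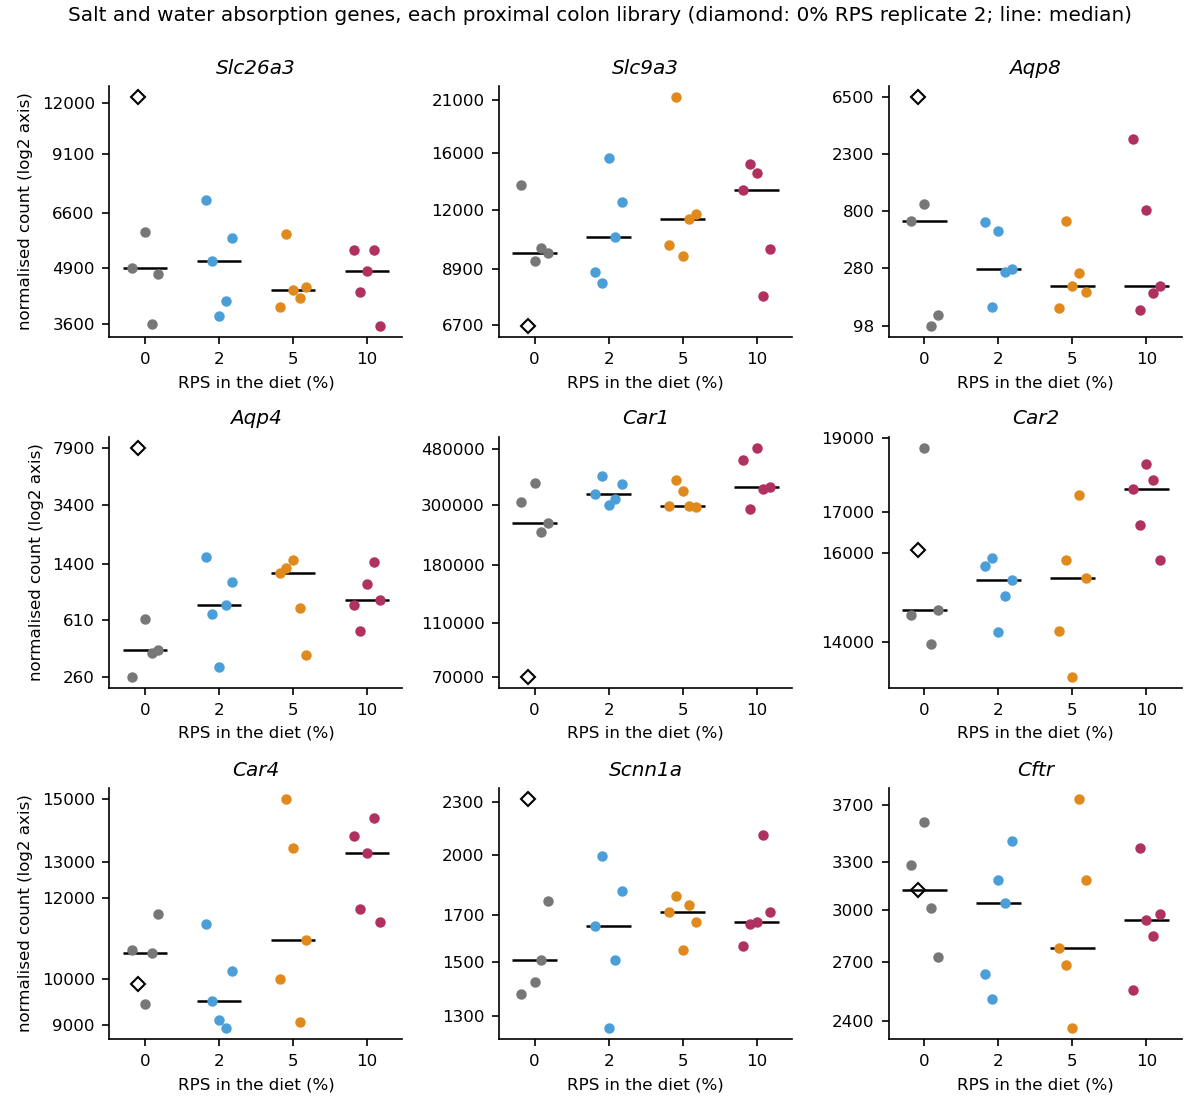
Normalised counts (log2 axis) of each of the 9 genes against the percentage of RPS in the diet. Each point is 1 library, the line is the median of a diet (n = 5) and the diamond is 0% RPS replicate 2. The diamond is the highest point for Slc26a3, Aqp8, Aqp4 and Scnn1a and the lowest for Slc9a3 and Car1, and in Car4 all 10% RPS points sit above those of 2% RPS.

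The library 0% RPS replicate 2 lay outside the range of the other 19 for 6 of the 9 genes, against 25.9% of all genes. Slc26a3 was 2.58 times the mean of the other 4 libraries of its diet there, Aqp8 14.3 times, Aqp4 19.3 times and Scnn1a 1.53 times. Slc9a3 was 0.628 and Car1 0.241 of that mean. Among pathway genes that were examined, Chp2, a binding partner of sodium-hydrogen exchangers, stood above the others (4781 against 1246 to 2234). Prkg2, the kinase that relays the guanylin signal (865 against 2307 to 3573), its receptor Gucy2c (7249.5 against 9241 to 11343), and Atp1b1, the beta subunit of the sodium pump (21305 against 25217 to 35578), stood below. The same library was within the range of the others for Car2, Car4 and Cftr, and for the summed epithelial markers (340000.0 against 304413 to 425045).

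**Figure D3:**
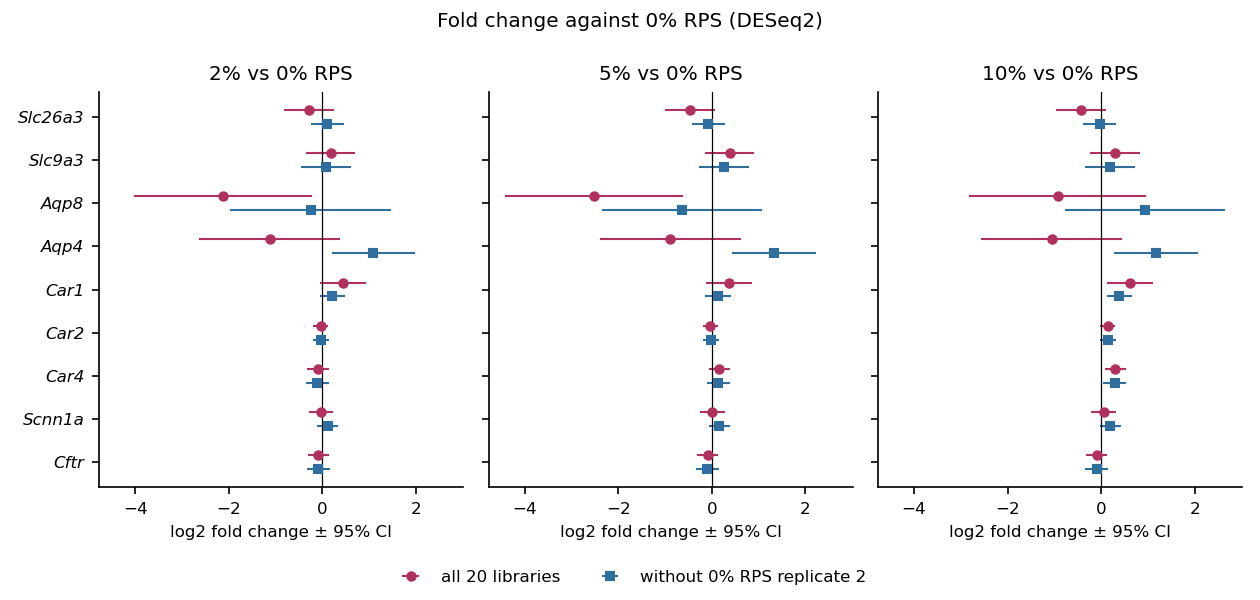
Log2 fold changes of the 9 genes against 0% RPS with 95% confidence intervals (DESeq2), from all 20 libraries (circles) and without 0% RPS replicate 2 (squares). The values of Aqp4 change from negative to positive when that library is left out, those of Aqp8 shrink at 2% and 5% RPS and change sign at 10% RPS, and those of Car2, Car4 and Cftr hardly move.

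Car4 was the only one of the 9 genes to pass the linear trend over the percentage of RPS. Its log2 normalised count rose by 0.036 for each 1% of RPS (SE 0.011, 95% CI 0.015 to 0.058, DESeq2 adjusted p = 0.0329), or 1.29-fold over 10% RPS. The trend called 4.29% of all genes tested, and 1 of the 8 members that could be tested. The edgeR quasi-likelihood test gave the same slope, 0.036, with an adjusted p of 0.0872, and called none of the 9 and 1.33% of all genes, although it too had Car4 under an unadjusted p of 0.05. Car1 and Car2 had unadjusted p under 0.05 in DESeq2 but adjusted p of 0.224 and 0.242, which with Car4 made 3 of 8 members under that limit beside 19.1% of all genes tested, and Aqp4 was left without a p by the outlier filter of DESeq2.

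The normalised counts of Car4 (chr11:84848020-84856879) were 9436, 9879.8, 10589, 10662 and 11582 at 0% RPS. At 2% RPS they were 8951, 9111, 9496, 10171 and 11323, and at 5% RPS 9061, 9994, 10899, 13417 and 14984. At 10% RPS they were 11366, 11692, 13265, 13787 and 14367. Of the 5 libraries at 10% RPS, 4 lay above every library at 0% RPS, and all 5 lay above every library at 2% RPS, a separation found in 1.76% of all genes. The 5% RPS libraries overlapped all other diets and held the highest value.

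Against single diets, the log2 fold change of Car4 at 10% RPS was 0.31 over 0% RPS (95% CI 0.077 to 0.54, DESeq2 adjusted p = 0.108) and 0.39 over 2% RPS (0.16 to 0.62, adjusted p = 0.154). In exact permutation tests of log2(normalised count + 1), two-sided and not adjusted, p was 0.0159 and 0.00794. The second is the smallest that 5 against 5 libraries can give and follows from the full separation described above. Among the 9 genes and all pairs of diets, with all libraries, only Car2 also fell under 0.05. Its permutation p was 0.0159 at 10% against 2% and 0.0397 at 10% against 5% RPS. At 2% RPS the log2 fold change of Car4 from 0% RPS was -0.088 (-0.32 to 0.14). Between the starch diets, 5% against 2%, 10% against 2% and 10% against 5% RPS, DESeq2 called none of the 9 genes, and 0, 7 and 1 of all genes (0.0557% in the second and 0.00796% in the third). Unadjusted p under 0.05 was reached by Car4 in the first comparison, by Car2 and Car4 in the second and by Car2 in the third, beside 2.86%, 9.004% and 4.11% of all genes tested, and edgeR called 0 genes of the table in each.

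Leaving out each library in turn, the trend of Car4 passed in 16 of 20 fits, with slopes from 0.032 to 0.041. It was lost without 2% RPS replicate 4 or any of 10% RPS replicates 1, 3 and 4, with adjusted p of 0.0524 to 0.0933. With libraries scaled on epithelial genes the slope was 0.027 (DESeq2 adjusted p = 0.282), and over the starch diets alone it was 0.047 (adjusted p = 0.105). The 3 measured surface colonocyte markers that are not among the 9 summed to 91456 ± 8684 normalised counts (SD, n = 5) at 0% RPS, 109168 ± 14795 at 2%, 122825 ± 21003 at 5% and 133587 ± 9378 at 10% RPS, while the mean of Car4 was 10429.8 ± 821, 9811 ± 967, 11671 ± 2462 and 12895 ± 1312. The same marker list also holds Car4, Slc26a3 and Aqp8. The means of Slc26a3 and Aqp8 were 6305 and 1653 at 0% RPS and 4690 and 869 at 10% RPS. Without replicate 2 those at 0% RPS were 4791 and 451. The epithelial markers summed to 332070.0 ± 25395 at 0% RPS and 367694 ± 35658 at 10% RPS, the 7 goblet cell markers to 580015 ± 143777 and 798736 ± 187647, and the smooth muscle markers to 222960.0 ± 63319 and 193520.0 ± 40594. Their part in the trend was not tested.

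**Figure D4:**
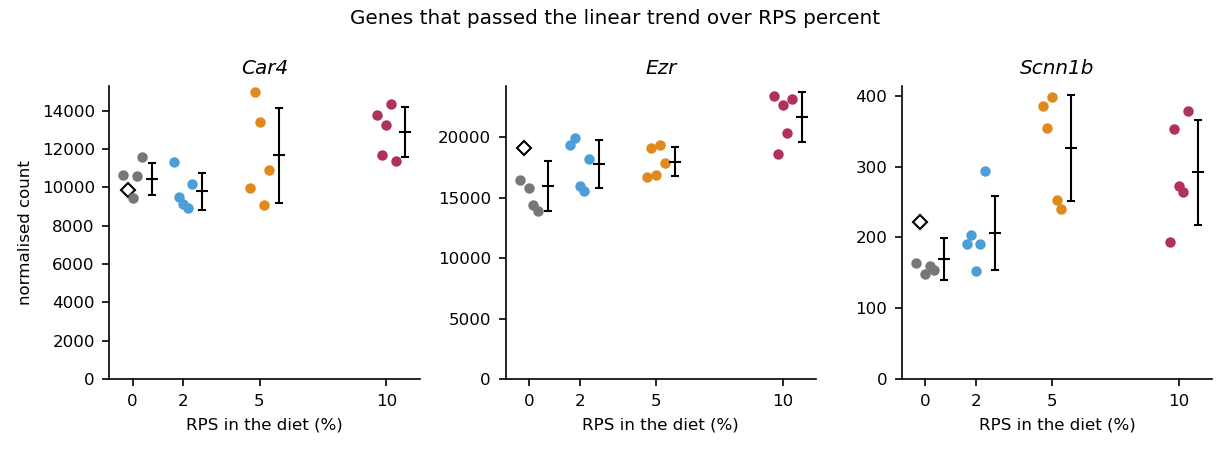
Normalised counts of Car4, Ezr and Scnn1b against the percentage of RPS, with 1 point per library, the diet mean ± SD (n = 5) beside the points and 0% RPS replicate 2 as a diamond. All 3 passed the linear trend in DESeq2, and in edgeR only Ezr did. The highest diet mean is that of 10% RPS for Car4 (12895) and Ezr (21663) and that of 5% RPS for Scnn1b (326), and the points of 5% and 10% RPS overlap for all 3.

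The rest of the transport machinery was read from 6 lists holding 55 measured genes, 46 of them not among the 9. Of these 46, DESeq2 called 0 at 2% RPS, 1 at 5% RPS and 1 at 10% RPS, in each case Scnn1b, and the trend called 2, Scnn1b and Ezr, all upward. Genes called upward made up 0.334% of all genes at 5% RPS, 0.525% at 10% RPS and 2.4% in the trend. The median log2 fold change of the 46 was 0.058, 0.032 and 0.051 at 2%, 5% and 10% RPS, beside -0.0076, -0.0089 and 3.6e-05 over all genes tested. The lists therefore lay close to the rest of the table.

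Scnn1b, the beta subunit of ENaC, rose at 5% and at 10% RPS. Its normalised counts were 149, 153, 159, 165 and 222 at 0% RPS, and 153, 190.4, 190.4, 204 and 294 at 2% RPS. They were 240.3, 253, 355, 386 and 398 at 5% RPS, and 193, 265, 272, 353 and 378 at 10% RPS. All 5 libraries at 5% RPS and 4 of 5 at 10% RPS lay above every library at 0% RPS. Such separation at 5% RPS was seen in 2.43% of all genes in either direction. The log2 fold change was 0.94 at 5% RPS (SE 0.20, DESeq2 adjusted p = 0.00187) and 0.79 at 10% RPS (SE 0.20, adjusted p = 0.00821).

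The edgeR quasi-likelihood test gave Scnn1b log2 fold changes of 0.95 and 0.78 with adjusted p of 0.0645 and 0.0599, past the threshold in neither. With 0% RPS replicate 2 left out, edgeR called it in both, at 1.06 (adjusted p = 0.0369) and 0.90 (adjusted p = 0.0263). The alpha subunit Scnn1a showed 0.013 and 0.055 in the same comparisons, and whether the subunits differ in their response was not tested. Among the genes that control ENaC, Sgk1, a kinase under aldosterone, and St14, a protease that activates the channel, were the most abundant, and neither passed. The call for Scnn1b at 10% RPS was lost without 10% RPS replicate 5 (DESeq2 adjusted p = 0.0639) and without the 3 libraries whose label numbers fall outside the run (0.0654). Those 3 are 2% RPS replicate 5 and 10% RPS replicates 4 and 5. In all other libraries the label numbers run in blocks by diet, in the order 0%, 2%, 5% and 10% RPS. Label number and diet therefore cannot be told apart in any comparison between diets. The trend of Scnn1b had a slope of 0.082 (SE 0.022, DESeq2 adjusted p = 0.0145), which edgeR put at an adjusted p of 0.0780. That trend was also lost in DESeq2 over the starch diets alone (slope 0.051, adjusted p = 0.518), on epithelial size factors (adjusted p = 0.0501) and without 10% RPS replicate 5 (adjusted p = 0.0743).

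Ezr, whose product ezrin ties NHE3 to the actin of the brush border, rose with RPS by 0.041 on the log2 scale for each 1% (SE 0.0087, DESeq2 adjusted p = 0.000860). In edgeR's quasi-likelihood test it passed as well, with an adjusted p of 0.0273. The normalised counts were 13903, 14421, 15802, 16485 and 19121 at 0% RPS, the last in replicate 2, and 15530.5, 15958, 18181, 19339.8 and 19918 at 2% RPS. They were 16688, 16878, 17907, 19105 and 19330.1 at 5% RPS, and 18620.5, 20380.4, 22679.9, 23206 and 23427 at 10% RPS. Of the 10% RPS libraries, 4 of 5 lay above all of 0% RPS. The trend held in each of the 20 fits that left out 1 library, and over the starch diets alone its DESeq2 adjusted p was 0.0508.

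No gene of the sodium pump list or of the list for chloride secretion and its potassium channels passed in any comparison with 0% RPS or in the trend, out of 4 and 14 tested. The most abundant of the secretion list were the signal peptide gene Guca2a and its receptor Gucy2c. Among the 4 aquaporins and 9 carbonic anhydrases tested against 0% RPS the only call was the trend of Car4. The most abundant aquaporin by normalised count was Aqp1, a water channel of vessels, at 3677 ± 533 (SD, n = 20). Without 0% RPS replicate 2, Nherf4, a scaffold protein of the brush border, also passed the trend, downward, with a slope of -0.028 (DESeq2 adjusted p = 0.0261), where 6.43% of all genes did.

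From mouse to mouse, 24 of the 36 pairs among the 9 genes correlated positively across the 20 libraries on the log2(normalised count + 1) scale. No pair passed with both measures after Benjamini-Hochberg adjustment over the 36 pairs (100000 permutations, two-sided). Slc26a3 and Aqp8 came closest, with Pearson's r of 0.73 (p = 0.00092, adjusted 0.0166) and Spearman's rho of 0.59 (p = 0.00696, adjusted 0.251). Without the 2 libraries farthest from the median of Slc26a3 r was 0.48.

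The signs of the correlations of Car1 with Slc26a3, Aqp8 and Aqp4 rested on 1 mouse, 0% RPS replicate 2. Without it r turned from -0.56, -0.33 and -0.47 to 0.47, 0.65 and 0.50. Slc26a3 and Car1 had r of -0.56 (permutation p = 0.0485, adjusted 0.192) and rho of 0.34 (permutation p = 0.141, adjusted 0.383), and r was 0.55 without the 2 farthest libraries, so its sign rests on those. For Aqp4 and Scnn1a r was 0.70 (permutation p = 0.00087, adjusted 0.0166) and rho 0.51 (permutation p = 0.0215, adjusted 0.252), and for Car4 and Cftr r was -0.54 (permutation p = 0.0145, adjusted 0.104) and rho -0.53 (permutation p = 0.0172, adjusted 0.252). Without the 2 farthest libraries these r were 0.45 and -0.53, and without 0% RPS replicate 2 alone they were 0.53 and -0.54. Within diets, as deviations from the diet means, they were 0.69 and -0.66, while on epithelial scaling that of Car4 and Cftr shrank to -0.14.

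**Figure D5:**
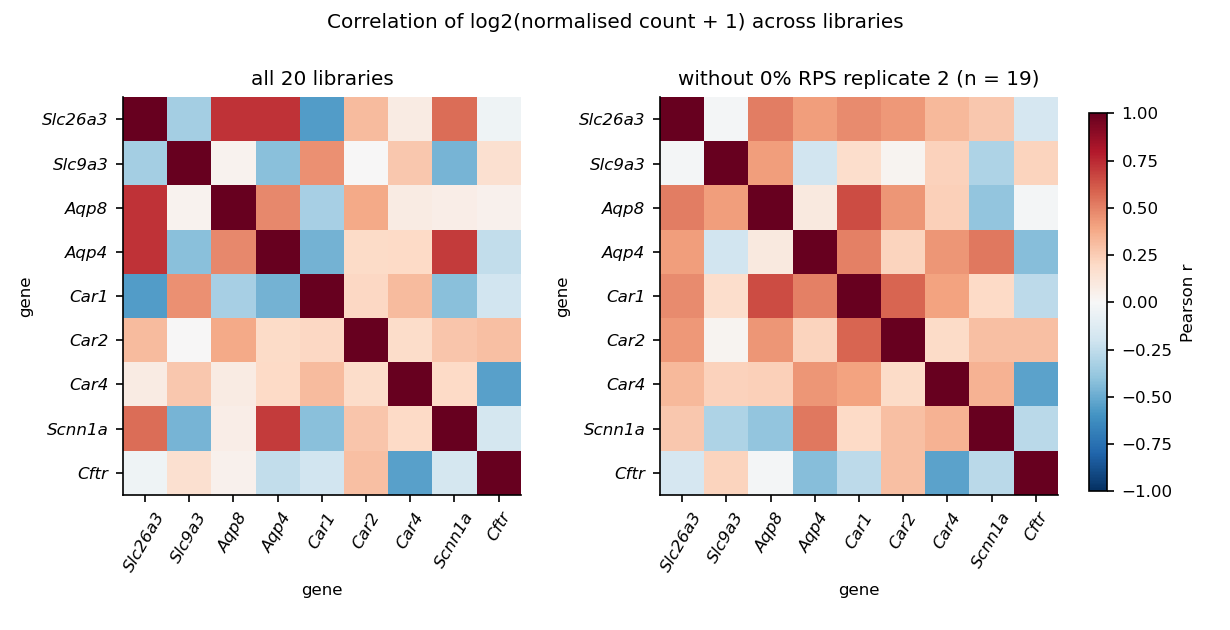
Pearson correlations between the 9 genes across libraries, on the log2(normalised count + 1) scale, for all 20 libraries (left) and without 0% RPS replicate 2 (right). The colour runs from -1 (blue) to 1 (red). The blue cells of Car1 with Slc26a3, Aqp8 and Aqp4 on the left turn red on the right.

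The genes most like each member over the 20 libraries, among those averaging 100 normalised counts or more, were found by Pearson's r as a description. Slc26a3 was followed most closely by Chp2 (r = 0.92) and Edn3 (0.91), and Slc9a3 by Insig2 (0.86) and Fkbp5 (0.83). Aqp8 was followed by Sgpl1 (0.87) and Phlpp2 (0.87), and Aqp4 by Retnlb (0.95) and B3gnt5 (0.88). For Car1 they were Tmigd1 (0.93) and Sucla2 (0.93), for Car2 Cth (0.81) and Ppp2r5e (0.80), and for Car4 Muc17 (0.83), a membrane mucin of the brush border, and Adamts15 (0.71). For Scnn1a they were Ppp1r2 (0.84) and Hpd (0.82), and for Cftr Setd1a (0.78) and Polr1b (0.76).

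The closest genes of Slc9a3, Aqp8, Aqp4, Car2 and Car4 (Insig2, Sgpl1, Retnlb, Cth and Muc17) stayed the closest without 0% RPS replicate 2, with r of 0.82, 0.92, 0.91, 0.81 and 0.86. For Slc26a3, Car1, Scnn1a and Cftr another gene came first. Without that library their r with Chp2, Tmigd1, Ppp1r2 and Setd1a was 0.81, 0.67, 0.79 and 0.78. Sucla2 then stood at 0.77 with Car1, Phlpp2 at 0.78 with Aqp8 and B3gnt5 at 0.76 with Aqp4. All these correlations are over the same libraries, which differ in depth and in their marker sums.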

How the data were processed

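PC tissue of 20 mice was analysed from the deposited table of raw read counts per Ensembl gene. The authors removed low-quality bases and ambiguous reads, then aligned single-end 50-base reads of stranded mRNA libraries with CLC Genomics Workbench to GRCm39, without pooling mice. The annotation, the use of strand and the handling of multiply matching reads are not given in the sources used here. Libraries held 20581013 to 35083751 counts. Intervals give the uncertainty of a fold change or slope, from the spread between libraries as DESeq2 fits it.

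Groups came from the diet in the labels. Symbols and overlaps came from GENCODE M39, in which 12682 of 12701 genes were found. DESeq2, the tool the study names, was fitted here (version 1.42.0, R 4.3.3) to all 20 libraries with diet as the only term, or with RPS percent as a number, and Wald tests were adjusted over all genes. Changed means an adjusted p of 0.05 or less and at least 1.5-fold. The trend has no fold threshold. Normalised counts were obtained with the size factors of DESeq2, and TPM uses merged exon length. edgeR (version 4.0.16), other scalings and filters, a muscle covariate and the omission of single libraries were tried. Fits were tested on simulated data.

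The 9 genes, the marker and pathway lists, and the rule for named genes (every pathway gene that passed against 0% RPS or in the trend, the 2 most abundant of each list, and the 2 most correlated genes of each member) were chosen with earlier results of these data known. One gene that this rule names is not reported here. The other pathway genes named beside 0% RPS replicate 2 were chosen after their values were seen. Fits combining its omission with edgeR, epithelial scaling or the muscle covariate were added after seeing the data.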

Additional observations from a re-analysis of the deposited data

Results flagged for a closer look

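For each of the 9 genes in each diet, 36 groups of 5 libraries in all, a library was picked out where its gap to its nearest neighbour took more than 0.71 of the range of its group. For normally distributed values chance picks out about 1 group in 20. These groups share libraries and their counts were not tested for normality, so that share cannot be set against theirs. Of the 36 groups, 8 held such a library. The library 0% RPS replicate 2 accounted for 3 of them: Slc26a3 stood at 12364 normalised counts there, Aqp8 at 6463 and Aqp4 at 7908, each far above the next library of its diet. The library 5% RPS replicate 2 also accounted for 3, with Slc26a3 at 5887, Slc9a3 at 21245 and Aqp8 at 664. The remaining libraries were 10% RPS replicate 1 for Aqp8, at 3003, and 10% RPS replicate 4 for Scnn1a, at 2107.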

How the results depend on the processing

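None of the 9 genes changed in a comparison between diets under any alternative except Car1 at 10% against 0% RPS without 0% RPS replicate 3, so that leaving out single libraries gave 0 to 1 of the 9 there. In the trend it gave 0 to 2 of the 9, and the count was 0 by edgeR, on epithelial size factors, without the 3 libraries whose label numbers fall outside the run, over the starch diets alone, and by edgeR or on epithelial size factors with 0% RPS replicate 2 left out. No paired analysis was possible because each mouse ate 1 diet and the labels pair no mice between diets. The replicate numbers used here only count the libraries within a diet.

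Over all genes, edgeR called 0 at 2%, 7 at 5% and 40 at 10% against 0% RPS, 0 at 10% against 2% and 0 at 10% against 5%, and 165 in the trend. The muscle covariate gave 6 at 2% against 0% and 2 at 10% against 5%. Epithelial size factors gave 1 at 2% against 0%, 3 at 10% against 2% and 218 in the trend. With no fold threshold the counts were 239 at 5% and 578 at 10% against 0%, 18 at 10% against 2% and 2 at 10% against 5%, and with 2-fold they were 24, 44, 4 and 0. Without the 3 libraries they were 67 at 10% against 0%, 1 at 5% against 2%, 3 at 10% against 2%, 2 at 10% against 5% and 265 in the trend. Without Cook filtering 1 gene passed at 5% against 2%, and with only the compared diets 3 did, 22 at 10% against 2% and 4 at 10% against 5%. TMM gave 1 and 0 in the last pair, and the starch-only trend gave 144. With 0% RPS replicate 2 left out, edgeR gave 0, 19 and, in the trend, 344, epithelial size factors 104 at 5%, 183 at 10% and 299 in the trend, and the muscle covariate 8, 120, 210 and 964. Leaving out single libraries gave 1 to 10, 24 to 104 and 62 to 201 at 2%, 5% and 10% against 0%, 0 to 1 at 5% against 2%, 1 to 12 at 10% against 2%, 0 to 3 at 10% against 5% and 178 to 807 in the trend. The causes were not tested.

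Signs that turned belonged to values past no threshold, and log2 fold changes are given. With 0% RPS replicate 2 left out, Slc26a3 at 2% was 0.10 by edgeR and 0.10 with the muscle covariate, and Slc9a3 at 2% was -0.061 on epithelial size factors. In the order edgeR, epithelial size factors and muscle covariate with that library left out, Aqp4 was 1.09, 0.94 and 1.08 at 2%, 1.32, 1.23 and 1.33 at 5%, 1.15, 1.05 and 1.16 at 10% and 0.074, 0.072 and 0.078 in the trend. With all libraries the muscle covariate gave it 0.31 at 5%, 0.077 at 10% and 0.019 in the trend, the mean log2 values of the exact permutation test differed by 0.096, 0.36 and 0.28, the starch-only trend was 0.0043 and the correlation with RPS 0.10. In the same order Aqp8 was 0.94, 0.86 and 0.48 at 10% and 0.11, 0.098 and 0.065 in the trend, which was 0.16 over the starch diets. Car2 at 2% was 0.0025 with the muscle covariate and that library left out. Scnn1a at 2% was 0.11 by edgeR and 0.13 with the muscle covariate without that library, and -0.11 at 5%, -0.081 at 10% and -0.0020 in the trend on epithelial size factors, and -0.042 at 10% and -0.0012 in the trend without the 3 libraries.

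Leaving out single libraries, Slc26a3 at 2% ran from -0.44 to 0.10. Aqp4 ran from -1.44 to 1.09, -1.17 to 1.33, -1.34 to 1.16 and, in the trend, -0.11 to 0.076. Aqp8 ran from -2.30 to 0.95 at 10% and -0.21 to 0.10 in the trend. Car2 ran from -0.072 to 0.038 at 2% and -0.086 to 0.040 at 5%. Scnn1a ran from -0.11 to 0.12, -0.050 to 0.16, -0.023 to 0.20 and -0.00080 to 0.017. The spread of Aqp8 and Aqp4 between mice left their intervals wide at this number of mice.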
